A study of Drosophila melanogaster with 2 samples.

Results

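The genes of mitochondrial ribosomal proteins were taken as all protein-coding genes whose Ensembl symbol starts with mRpL (named for the large subunit) or mRpS (named for the small subunit). There were 73 of them among 13945 protein-coding genes on the main chromosome arms, 47 with an mRpL symbol and 26 with an mRpS symbol. The rule uses symbols and no peak values. Their promoters were read in peak lists from chromatin immunoprecipitation with sequencing that mapped CkIIalpha-i1, whose name marks it as an interactor of casein kinase II alpha. The material was whole Drosophila melanogaster embryos collected from 0 to 18 hours, in 1 group with 2 biological replicates from separate biosamples. The strain, CkIIalpha-i1-GFP, carries an insertion that expresses the protein fused to enhanced green fluorescent protein (eGFP), and the immunoprecipitation is described as directed at the tag. The antibody field of the labels names CkIIalpha-i1 itself, and this was not resolved. The labels give neither the promoter that drives the fusion nor a cell type, so a peak is a summary over all embryonic tissues and stages. No control library and no other condition was analysed here, and with 1 group no test between conditions was possible.

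The mitochondrial ribosome translates the few messenger RNAs that mitochondrial DNA encodes, which specify membrane subunits of the oxidative phosphorylation complexes. Its ribosomal RNAs are made inside the organelle, while its proteins are encoded in the nucleus, translated in the cytoplasm and imported. Many of these proteins have counterparts in bacterial ribosomes, and others occur only in mitochondrial ribosomes.

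A promoter peak was a thresholded peak whose summit lay at most 500 bp from a transcription start site (TSS) of the gene. The authors' thresholded lists keep peaks with an irreproducible discovery rate (IDR, which is low for peaks that rank high, and alike, in both lists compared) of at most 0.01. Of the 73 genes, 7 had a promoter peak in the conservative list, which compares the replicates and held 663 peaks. This is 9.59% of the members, where 3.17% of all 13945 protein-coding genes had one. Among genes with at least a ranked candidate there, the shares were 13.2% of 53 members and 4.2% of 10521 genes. In the pooled list the count was again 7 members (9.59%), where 4.04% of all genes had a promoter peak. In replicate 1's own list 4 members (5.48%) had one, where the share of all genes was 2.12%. In replicate 2's own list 7 members (9.59%) had one, where the share of all genes was 2.62%. The conservative count was 4 at an IDR limit of 0.001 (5.48%, all genes 0.896%). It was 3 when the member's own TSS had to be the one nearest the summit (4.11%, all genes 2.32%). No set test was made on these counts.

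The same 7 genes made up the count in the conservative, pooled and replicate 2 lists, and the 4 of replicate 1 were among them. They encode mRpL41, mRpS23, mRpS10, mRpL23, mRpS2, mRpL24 and mRpL20. Symbols of both kinds were represented, with 4 of 47 mRpL genes and 3 of 26 mRpS genes. The subunit was read from the symbol only. Of the 7, mRpL41 and mRpS23 were classed as proteins found only in mitochondrial ribosomes (2 of 30). The other 5 were classed as having a bacterial counterpart (5 of 43). The latter include mRpS2, mRpS10, mRpL20, mRpL23 and mRpL24, named after the bacterial proteins S2, S10, L20, L23 and L24. The classes were assigned by symbol and not checked against structures, and mRpL47 and mRpS28 were counted among the 30. The totals of 30 and 43 are therefore approximate.

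The peak regions of 5 of these genes are shown because their summits are intergenic, between the member and a gene that runs the opposite way. The mRpL41 summit is intergenic too, and its region is given by position only. Each sequence is the part of the conservative peak outside every annotated exon, read 5′ to 3′ on the member's strand from the RefSeq Release 6 (dm6) genome. Capitals mark runs of at least 8 bases made of A and T alone. The regions are chr2L:13835386-13835549 for mRpS23 and chr3R:15229459-15229622 for mRpS10. They are chr2L:4850464-4850640 for mRpS2, chr2L:4945403-4945578 for mRpL24 and chr3L:13018040-13018265 for mRpL20. mRpS10 lies on the plus strand and the other 4 genes on the minus strand.
mRpS23: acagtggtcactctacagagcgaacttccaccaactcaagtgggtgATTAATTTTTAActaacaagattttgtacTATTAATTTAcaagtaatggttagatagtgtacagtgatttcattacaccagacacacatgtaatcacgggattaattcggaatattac
mRpS10: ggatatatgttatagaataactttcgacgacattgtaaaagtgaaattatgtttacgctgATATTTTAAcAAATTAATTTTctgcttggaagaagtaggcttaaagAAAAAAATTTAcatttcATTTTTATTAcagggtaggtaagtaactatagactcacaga
mRpS2: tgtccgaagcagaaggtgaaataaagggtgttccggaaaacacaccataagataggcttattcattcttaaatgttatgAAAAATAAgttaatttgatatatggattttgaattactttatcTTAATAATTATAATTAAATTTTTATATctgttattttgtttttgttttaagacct
mRpL24: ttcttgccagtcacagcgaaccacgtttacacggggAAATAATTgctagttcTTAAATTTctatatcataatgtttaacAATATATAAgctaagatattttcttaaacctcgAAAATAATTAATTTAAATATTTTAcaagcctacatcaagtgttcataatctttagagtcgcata
mRpL20: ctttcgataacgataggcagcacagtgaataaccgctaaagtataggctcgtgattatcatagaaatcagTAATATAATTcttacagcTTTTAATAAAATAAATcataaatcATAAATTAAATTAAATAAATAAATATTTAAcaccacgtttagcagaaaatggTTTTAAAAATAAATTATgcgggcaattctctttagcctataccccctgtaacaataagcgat
All 5 regions were rich in A and T, at 65.2% in mRpS23, 71.0% in mRpL24, 71.2% in mRpL20, 72.6% in mRpS10 and 75.1% in mRpS2. Runs of A and T covered 13.4% of the mRpS23 region and 32.3% of the mRpL20 region, the extremes among the 5.

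The strongest peak of the set lay at mRpL41 (FBgn0034001), on 2R from 15217634 to 15217856. The signal of the peak, a score per peak given by the authors on an unstated scale, was 541.2 in the conservative list, the third highest of 663. It was 215.6 in replicate 1, where it ranked 6 of 427, and 327.8 in replicate 2, where it ranked 2 of 569. Both replicates thus placed it among their strongest sites. Its summit lay at −139 bp from the TSS, where a negative position is upstream, at −132 bp in replicate 1 and −152 bp in replicate 2. The facing protein-coding gene, CG8079, starts 762 bp away on the other strand, and its TSS was 623 bp from the summit.

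The peaks of mRpS23 and mRpS10 came next and were close to each other in every list. At mRpS23 (FBgn0260407) the signal was 367.9 in the conservative list, 175.5 in replicate 1 and 193.6 in replicate 2. At mRpS10 (FBgn0038307) it was 365.1, 174.1 and 189.9. Their conservative ranks were 12 and 13, and in both replicates they ranked within the first 18 thresholded peaks. The mRpS23 summit lay at −408 bp and only 84 bp from the TSS of CenG1A, which encodes a centaurin-family GTPase-activating protein for Arf. The mRpS10 summit lay at −125 bp, about midway to Art3, a member of the arginine methyltransferase family whose TSS was 132 bp away.

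mRpL23 (FBgn0035335), on 3L from 2372844 to 2373704, had the fourth signal, 246.0, at rank 43 of the conservative list. Its values were 94.5 in replicate 1 and 156.9 in replicate 2, the widest relative difference among the 7. This was the only one of the 7 summits inside a transcript, in the 5′ UTR of mRpL23 itself at 67 bp downstream of a TSS. From that TSS the replicate 1 summit lay at 49 bp and the replicate 2 summit at 92 bp. The gene has 3 annotated starts, and from the start nearest to it the replicate 2 summit lay upstream, at −85 bp. The facing gene CG9004 starts only 24 bp from the outermost mRpL23 start, and its TSS was 117 bp from the conservative summit.

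The remaining 3 peaks were weaker and passed the threshold in replicate 2 and not in replicate 1. mRpS2 (FBgn0031639) had signals of 95.3 in the conservative list, 41.0 in replicate 1 and 53.9 in replicate 2. mRpL24 (FBgn0031651) had 93.1, 37.5 and 52.6. mRpL20 (FBgn0036335) had 83.4, 34.7 and 46.6. In replicate 1 all 3 were present as candidates, with an IDR of 0.129 for mRpS2, 0.0308 for mRpL24 and 0.0183 for mRpL20, above the limit of 0.01. In replicate 2 their IDR was 0.000901, 0.00146 and 0.00247. These values belong to each replicate's own list, and what such a list compares is not given in the sources used here. Their conservative ranks were 302, 326 and 397 of 663.

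These 3 summits lay beside the start of the facing gene rather than that of the member. The mRpS2 summit was at −187 bp and 35 bp from the TSS of Mon1, a subunit of the exchange factor for Rab7. The mRpL24 summit was at −184 bp and 34 bp from the TSS of betaggt-I, the beta subunit of a prenyltransferase that attaches geranylgeranyl groups. The mRpL20 summit was at −315 bp and 84 bp from the TSS of Icmt, the isoprenylcysteine carboxyl methyltransferase that acts after prenylation. With mRpS23, 4 of the 7 summits were nearer to the facing TSS than to the member's own. When the own TSS had to be nearest, the share with a promoter peak fell from 9.59% to 4.11% of members. Over all protein-coding genes it fell from 3.17% to 2.32%. Such a peak counts for both genes of the pair, and the lists do not say which of them it concerns.

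**Figure D1:**
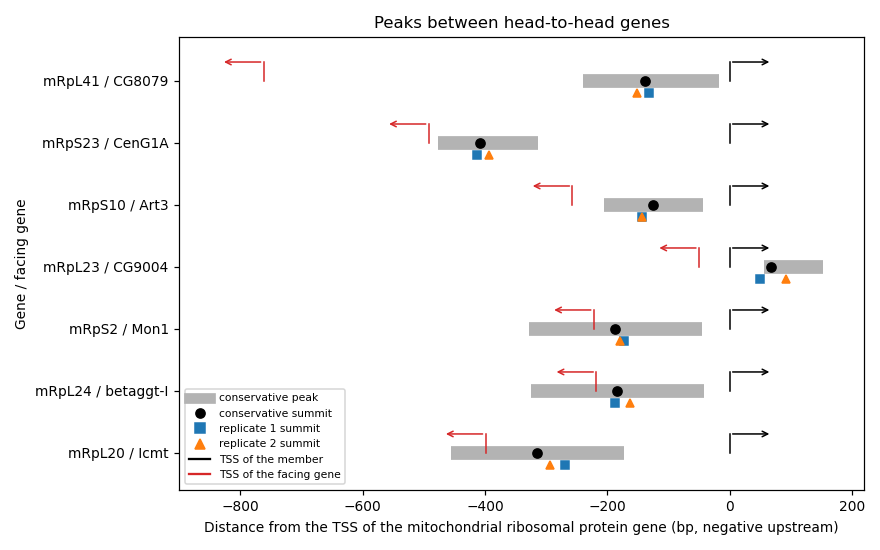
Conservative peaks (grey bars) and summits (black circle conservative, blue square replicate 1, orange triangle replicate 2) at the 7 genes, drawn in bp from the TSS of the mitochondrial ribosomal protein gene nearest the conservative summit, with negative values upstream; black and red arrows mark the starts of the member and of its facing gene. The summits run from −408 bp at mRpS23 to 67 bp at mRpL23, and those of mRpS23, mRpS2, mRpL24 and mRpL20 sit next to the red start.

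At the 7 genes the summits of the replicates lay 1 to 43 bp apart. The conservative list keeps peaks that match between the replicates, so part of this closeness follows from the selection. The summits of the replicates were 1 bp apart at mRpS10, 6 bp at mRpS2, 19 bp at mRpS23 and 20 bp at mRpL41. They were 25 bp apart at mRpL24 and at mRpL20, and 43 bp at mRpL23. The conservative summit was upstream of the member's nearest TSS at 6 of the 7 genes, all but mRpL23, and the median position was −184 bp. For the 442 protein-coding genes with a conservative promoter peak the median was −136 bp, with quartiles of −211 and −73.8 bp. The 4 strongest peaks were narrow, at 223 bp in mRpL41, 164 bp in mRpS23 and in mRpS10, and 97 bp in mRpL23. The other 3 had 284 bp, the full candidate width, which 580 of the 653 conservative peaks on the main arms (88.8%) also had.

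Replicate 2 gave the higher signal at all 7 genes, by 1.09-fold at mRpS10 to 1.66-fold at mRpL23, with a median of 1.34. Over the 653 conservative peaks replicate 2 was higher at 401 (61.4%), with a median ratio of 1.12. It was higher at most of the strongest of these peaks, and the 4 strongest member peaks ranked 3, 12, 13 and 43. The 61.4% is not matched for peak strength. At the 46 members that had a candidate but no peak the order was mostly the other way. There replicate 2 was higher at 12 (26.1%) and the median ratio was 0.711. Among all 10079 protein-coding genes with an unthresholded candidate it was higher at 4135 (41.0%). The ratios assume that both replicates were scored alike, and whether depth differs between the replicates could not be read from the lists.

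**Figure D2:**
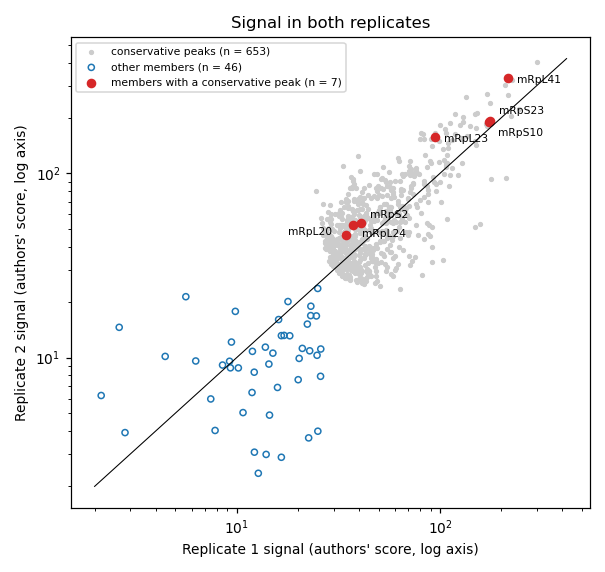
Signal (authors' score, log axes) in replicate 1 against replicate 2 for the 653 conservative peaks (grey), the 7 members with a peak (red) and the 46 members with a candidate only (blue open circles); the line marks equal values. All 7 red points lie above the line, and 12 of the 46 open circles do.

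The members without a peak are described by their strongest candidate. In the conservative ranked list, 53 of the 73 genes (72.6%, all genes 75.4%) had at least 1 candidate within 500 bp of a TSS. The 46 without a peak had a strongest candidate of 3.31 to 41.0, with a median of 21.3, where the 10079 protein-coding genes with a candidate and no peak had a median of 24.3. Their replicate 1 values ran from 2.16 to 25.9 with a median of 14.5, and their replicate 2 values from 2.36 to 23.7 with a median of 9.75. The deposited −log10 of the global IDR was 0.0773 to 1.43 for them, and 2.36 to 5 for the 7 with a peak. The strongest member without a peak had 41.0 and the weakest with one 83.4. Over all genes the values just there were mixed, since 147 of the 1136 genes between them had a promoter peak.

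The 5 highest of these 46 were mRpL36 at 41.0, mRpL48 at 40.8, mRpL21 at 40.6, mRpS18B at 40.1 and mRpS29 at 40.0. Their values were 23.1, 24.7, 22.9, 25.9 and 25.1 in replicate 1, in the same order. In replicate 2 they were 16.9, 16.8, 10.9, 11.1 and 23.7. mRpS29, whose human counterpart is the GTP-binding protein DAP3, was thus the one with nearly equal replicates. It also had the lowest IDR of the 5, 0.0368, where mRpL36 had 0.169 and mRpL48 had 0.157. Their summits lay at 170, −108, 347, 500 and 192 bp from the TSS, so mRpL48 alone had its candidate upstream.

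Within the conservative ranked list the median percentile of the 53 members was 51.1 among all genes with a candidate. Of the 53 members, 7 (13.2%) were above the 90th percentile, as were 1053 of all 10521 genes with a candidate by definition. These were the 7 with a peak, the lowest of them mRpL20 at 97.1. Of the 1053 protein-coding genes above that percentile, 442 (42.0%) had a conservative promoter peak. These 442 are all the protein-coding genes with such a peak, so the place of the 7 members follows from having one.

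**Figure D3:**
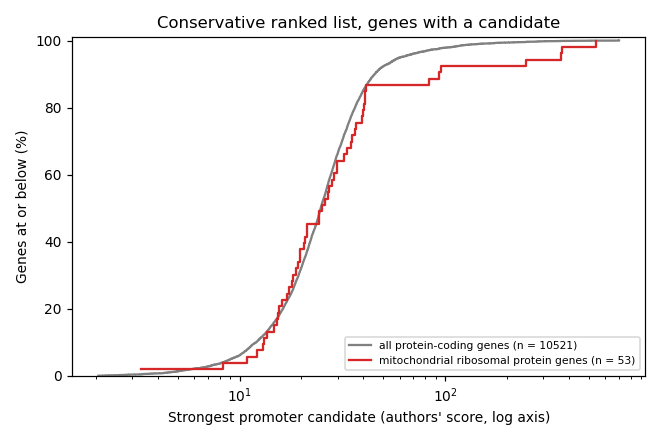
Cumulative share of genes (vertical axis, percent) with a strongest promoter candidate at or below a given signal (authors' score, log axis) in the conservative ranked list, for all 10521 protein-coding genes (grey) and 53 mitochondrial ribosomal protein genes (red). The red curve is flat between 41.0 and 83.4 and then takes 7 steps up to 541.2.

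In the replicates' own ranked lists, candidates were found at more members in replicate 1 than in replicate 2. Replicate 1 had a candidate at 57 of the 73 genes (78.1%) and replicate 2 at 36 (49.3%), while the pooled list had one at 61 (83.6%). For all protein-coding genes the shares were 75.8% in replicate 1, 63.0% in replicate 2 and 79.7% in the pooled list. Both own lists had one at 31 members (42.5%) and only that of replicate 1 at 26 (35.6%). Only that of replicate 2 had one at 5 (6.85%), and neither had one at 11 (15.1%). Over all protein-coding genes these shares were 53.2%, 22.6%, 9.85% and 14.4%. Replicate 2's own list thus had the fewer candidates here but the more promoter peaks. A member missing from both own lists can still have replicate values in the conservative ranked list, such as mRpL33 with 16.1 in each replicate. The 6 genes (8.22%) with no candidate in any of the 4 ranked lists were mRpL3, mRpL30 and mRpL38 on the X, mRpS34 and mRpS35 on 3L, and mRpS28 on 2R. The share of all protein-coding genes without one in any list was not computed. Promoter peaks were found at 3 of 12 members on 2L, 1 of 12 on 2R, 2 of 17 on 3L, 1 of 21 on 3R and 0 of 11 on the X. On these 5 arms the share of all protein-coding genes ran from 2.91% to 3.43%. The member counts are too small to compare the arms, and no test was made.

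**Figure D4:**
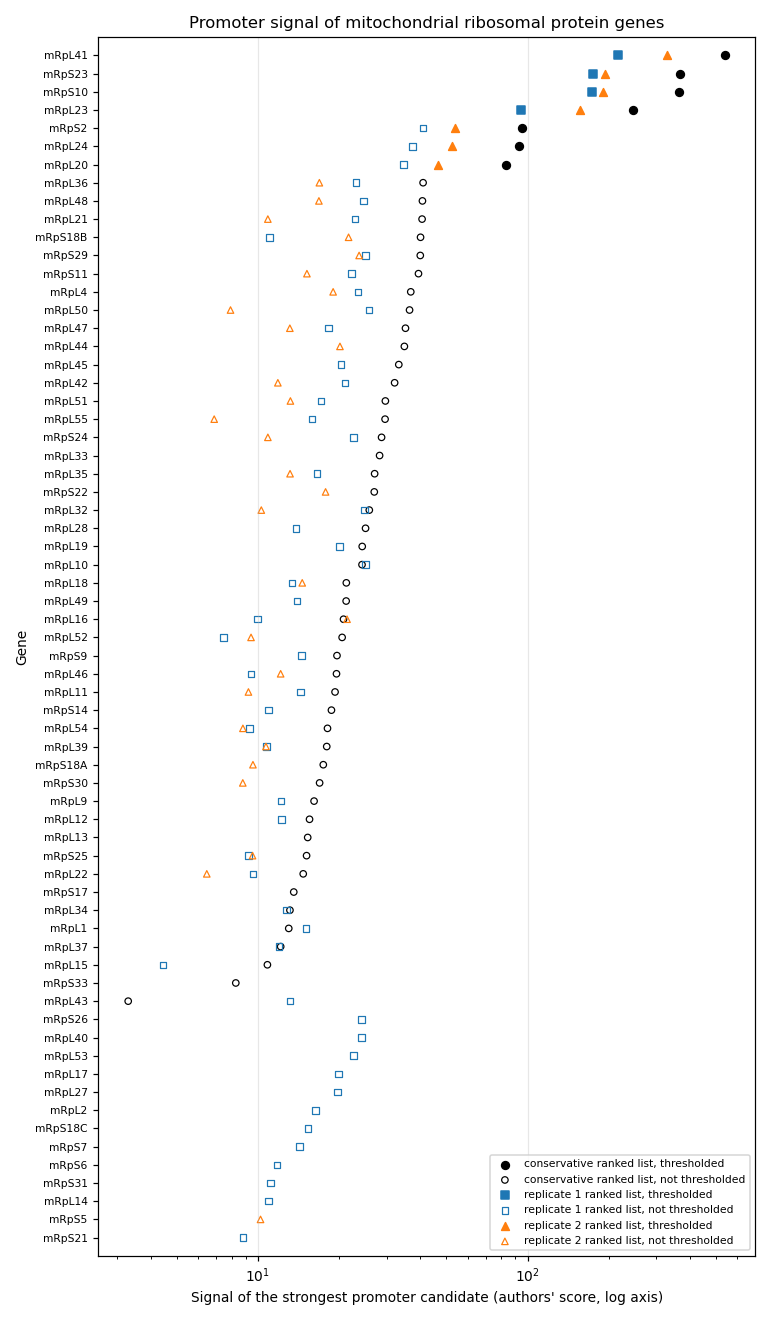
Signal of the strongest promoter candidate (authors' score, log axis) of each gene in the conservative (black circles), replicate 1 (blue squares) and replicate 2 (orange triangles) ranked lists, filled where the gene had a thresholded promoter peak in that list. The 7 genes at the top have conservative values from 83.4 to 541.2, and the other 46 with a conservative candidate have 41.0 or less.

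Head-to-head arrangement was common among these genes. Of the 73, 58 (79.5%) had another gene starting on the opposite strand within 1000 bp and running away from them, against 41.7% of all protein-coding genes. The share was 64.1% of 92 cytoplasmic ribosomal protein genes and 56.25% of 32 other nuclear genes of mitochondrial gene expression, both described below. At 1 of the 58, mRpL28, the facing start belonged to an annotated transposable element. All 7 members with a peak faced a protein-coding gene, which is 7 of 58 facing members (12.1%), beside 0 of the 15 others. Over all protein-coding genes a promoter peak was found at 5.04% of the 5813 that faced another gene and at 1.83% of the 8132 that did not. Of the facing cytoplasmic ribosomal protein genes 14 of 59 (23.7%) had one, and of the other facing mitochondrial expression genes 0 of 18. The distance between the facing starts had a median of 257 bp at the 7 genes (24 to 762 bp), 285 bp at the 51 other facing members and 299 bp over all facing genes.

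The peaks differed from the other candidates in base composition, and in position too. The summit was upstream of the TSS at 6 of the 7, but at 20 of the 46 other members (43.5%). It was upstream at 42.1% of the 10079 genes with a candidate and no peak. Whether position accounts for the difference in composition was not tested. Within 100 bp of the summit the GC content was 25.9% at mRpL41, 26.4% at mRpL20, 28.9% at mRpS2, 29.9% at mRpS10, 33.3% at mRpL24, 35.8% at mRpS23 and 36.3% at mRpL23. The 46 candidates of the other members had 28.4% to 64.2% with a median of 49.8%, so the ranges overlapped between 28.4% and 36.3%. The median was 35.8% for the 339 conservative peaks at protein-coding promoters and 47.8% for the candidates of the 10079 genes without one. The longest run of A and T alone was 11 bp at mRpS10 and 30 bp at mRpL20, with a median of 14 bp over the 7 and 13 bp over those 339 peaks. For the other 46 members the median was 8 bp.

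**Figure D5:**
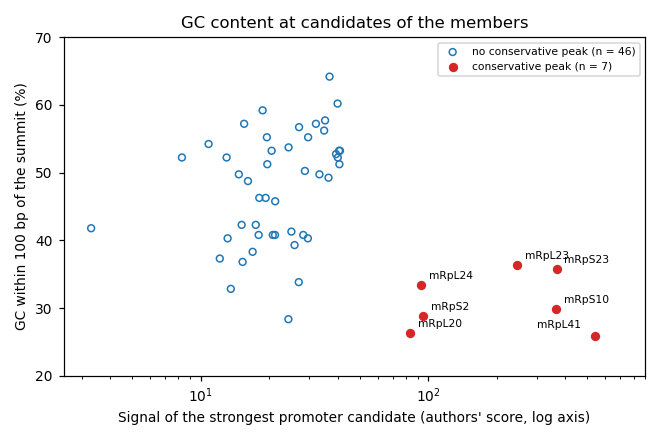
GC content within 100 bp of the summit (percent) against the signal of the strongest promoter candidate (authors' score, log axis) for the 53 members with a conservative candidate, with the 7 that had a peak in red. The red points lie between 25.9% and 36.3% GC, and the median of the 46 open circles is 49.8%.

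Short sequence words known from promoters were then counted on both strands, from 250 bp before to 50 bp after the outermost TSS. TATCGATA, the DNA replication-related element, was found in 15 of the 73 promoters (20.5%), against 9.36% of all protein-coding promoters. GGTCACACT, the core of the element bound by M1BP, was found in 8 (11.0%), against 6.05%. Neither word occurred within 100 bp of any of the 7 member summits, where they occurred near 5.01% and 2.06% of the 339 conservative promoter summits. The promoter windows of mRpL20 and mRpS23 held TATCGATA. In both of these genes the word thus lay more than 100 bp from the summit. TATAAA was about as frequent in the members (46.6%) as in all promoters (45.8%), and lay near 2 of the 7 summits, those of mRpL23 and mRpL24, and near 39.5% of the 339. GAGAGAG was found in 1 member, mRpL43 (1.37%, all promoters 5.87%), and GCGCATGC in 1, mRpL21 (1.37%, all promoters 1.05%).

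A pair of words came from an earlier search in these same peaks. ACAGTGG lay within 100 bp of 51 of the 339 conservative promoter summits and of 1 of the 7 member summits, that of mRpS23, where it opens the printed sequence. In the promoter windows it was found in 2 members, mRpL27 and mRpL50 (2.74%), against 3.49% of all promoters. CAGTGTA was found near 5.90% of the conservative promoter summits and near none of the 7. A word that is absent from such a window says only that these letters are not there.

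Of 32 other nuclear genes of mitochondrial gene expression, 0 had a promoter peak in any of the 4 thresholded lists. At the 3.17% of all genes a list of this size would hold about 1, so the count is near the background. The list holds aminoacyl-tRNA synthetases, initiation, elongation and ribosome recycling factors, transcription factors, and tko and bonsai, mitochondrial ribosomal proteins under other names. Of the 32, 22 had a conservative candidate. The highest candidates were 52.7 at ValRS-m, the mitochondrial valyl-tRNA synthetase, 46.8 at CysRS-m and 43.3 at TFAM, the mitochondrial DNA packaging and transcription factor. The candidates of tko and bonsai were 14.6 and 22.1. These levels were within the range of the members without a peak, except those of ValRS-m, CysRS-m and TFAM. The cytoplasmic ribosomal protein genes had a promoter peak at 20 of 92 (21.7%) in the conservative list, with 12 in replicate 1 and 3 in replicate 2. Between the replicates the mitochondrial set went from 4 to 7, and all protein-coding genes from 295 to 366. The difference between the sets was not tested.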

How the data were processed

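Chromatin immunoprecipitation lists for 1 group of 2 biological replicates were read as deposited. Per the labels' protocols, chromatin was sonicated to 200 to 800 bp and the assembly was dm6. Which aligner and peak caller were used is not given in the sources used here. The authors deposited 8 lists, a ranked and a thresholded one for each replicate, and 2 of each kind for the series. The signal is the authors' score per peak, of unstated scale, and is used to describe, rank and filter peaks. The ranked lists also give the deposited −log10 of the global irreproducible discovery rate, which was at most 0.01 in all 4 thresholded lists. The conservative list was read as the comparison of the replicates because both input signals at the 7 peaks equalled those of the replicates' own lists. The second list of the whole series is named pooled here. The lists leave the read depth unknown, and no interval that needs it is given.

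Summits on the 6 main arms were placed against TSSs of Ensembl annotation release 115. Each gene took its strongest candidate within 500 bp. Facing genes start on the opposite strand within 1000 bp. Named were every member with a promoter peak, its facing gene, the 5 strongest members without one, and members without any candidate. Members, lists and words were chosen with earlier results of these data known, and the split into proteins with and without a bacterial counterpart was made after the values were seen. Of 39 names listed for mitochondrial translation, 32 matched the annotation and 7 did not. No test was made, since 1 group allows none. Tried as alternatives were the pooled list, the lists of single replicates, TSS distances of 200 and 1000 bp, IDR limits of 0.001 and 0.05, overlap in place of the summit, the outermost TSS, facing distances and promoter windows. The placement was tested on simulated data, where 200 of 200 planted summits were recovered over 13945 genes. Python 3.11.15, numpy 2.4.6, pandas 2.3.3 and matplotlib 3.10.9 were used.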

Additional observations from a re-analysis of the deposited data

How the results depend on the processing

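The count of 7 members with a promoter peak stayed within 1.5 times of that value with the pooled list (7), a TSS distance of 200 bp (5, 6.85%, all genes 2.17%) or 1000 bp (7, all genes 3.92%), an IDR limit of 0.05 (8 with mRpS29 added, 11.0%, all genes 5.32%), overlap in place of the summit (7, all genes 3.41%) and the outermost TSS (7, all genes 2.62%). In the replicates' own lists, which are not the conservative comparison, it was 4 in replicate 1 and 7 in replicate 2. The conservative count was 4 at an IDR limit of 0.001 (5.48%, all genes 0.896%). It was 3 when the member's own TSS had to be the nearest (4.11%, all genes 2.32%), an alternative chosen after the data were seen. The median percentile of 51.1 became 57.8 at 200 bp and 57.5 at 1000 bp. The median summit position of −184 bp became −139 bp at 200 bp, which drops 2 of the 7 genes. It was −137.5 bp in replicate 1's own list and −163 bp in that of replicate 2. ACAGTGG was found in 6 members in place of 2 when the window ran from 500 bp before to 500 bp after the TSS, as the share of all promoters rose too (8.22% of members, 11.1% of all). The number of facing members was 53 at 500 bp (72.6%, all genes 31.0%) and 59 at 2000 bp (80.8%, all genes 51.4%). The cause of these changes was not tested, beyond the smaller or larger windows themselves. No paired analysis was possible because there was 1 group only. The lists give no depth, the replicates number 2, no control library was analysed here, and a peak between facing genes cannot be given to either of them.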

Other observations

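Besides the 7 promoters, 2 of the 66 other members (3.03%) had a conservative peak inside the gene or within 1000 bp of it. Both peaks lay beyond the 3′ end. The share of all protein-coding genes under this rule was not computed. With promoters widened to 1000 bp, a different rule, 3.92% of all protein-coding genes had a peak. The 2 peaks are therefore described by position only, and not as an excess over background. At mRpL27, on 2L, a peak of signal 88.9 had its summit 239 bp past the end of the gene, in the 5′ UTR of RpL27A and 8 bp from the TSS of that gene. RpL27A encodes a cytoplasmic ribosomal protein of the large subunit, so a mitochondrial and a cytoplasmic ribosomal protein gene lie side by side there. At mRpL13, also on 2L, a peak of signal 85.8 had its summit 232 bp past the end of the gene, in an intron of CG10602 and 117 bp from the TSS of CG10602. The summits lay 1246 bp and 1452 bp from the TSS of the member, and both were outside the promoter windows.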
